A study of Mus musculus with 4 samples.

Results

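The transcriptome of *Ythdf2*-knockdown mouse embryonic stem cells (ESCs) was compared here with that of ESCs carrying a scrambled hairpin, gene list by gene list, leaving out the 2-cell (2C) and core pluripotency genes. Of 50559 genes in the count table, 13995 had a mean count of at least 50 reads over the 4 libraries of the series. Genes of chromosome 12 (551) and of chromosome Y (8) were set apart, as were 71 of the 2C genes and 21 core pluripotency genes on other chromosomes, which left 13344 genes to describe. The cells were of the E14 line and were grown without feeders on gelatin, in serum replacement medium with leukemia inhibitory factor. Both compared libraries carried an empty vector (EV). The first held the scrambled hairpin (shScram+EV) and the second a hairpin against *Ythdf2* (shYthdf2+EV). The remaining 2 libraries carried that *Ythdf2* hairpin together with a YTHDF2 transgene, wild-type (shYthdf2+DF2WT) or mutated (shYthdf2+DF2Mut). Per the study's methods, hairpins came in by lentivirus, the lines were selected as stable lines with puromycin, and the parental ESCs carried a MERVL-driven tdTomato reporter. Each group was 1 library, so other differences between the stable lines cannot be told apart from the effect of the hairpin or of the transgene.

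YTHDF2 is a cytoplasmic protein that recognises N6-methyladenosine (m6A) in RNA and is best known for bringing the CCR4-NOT deadenylase to such RNA, which speeds its decay. In ESCs, m6A lies on many transcripts of developmental regulators. Loss of a reader can therefore change transcripts directly, through their own m6A, or through other genes that respond, and total RNA levels do not separate these routes.

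No group had a replicate, so nothing below was tested and no p-value is given. A difference is stated as the log2 ratio of shYthdf2+EV over shScram+EV after TMM scaling of the library sizes, with a prior count of 0.5. Brackets hold its 95% Clopper-Pearson interval on read pairs, which covers counting error only and says nothing of the spread between cultures. Total counts ranged from 31533129 to 35742335 reads, and 3 reads, taken as the floor, corresponded to at most 0.0949 CPM (counts scaled to a common library size). Values written as reads are raw counts. Where 4 of them follow each other, the first is shScram+EV, then come shYthdf2+EV and shYthdf2+DF2WT, and the last is shYthdf2+DF2Mut, while a pair gives the first 2 libraries. *Ythdf2* had 2806, 662, 7661 and 6925 reads, and the log2 ratio was -2.27 [-2.45 to -2.10]. The knockdown library was low, and in the last 2 libraries reads of the transgene and of the cells' own gene cannot be told apart.

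Across the 13344 genes the median log2 ratio was 0.01, and 90% of them lay between -0.73 and 0.77, from the 5% to the 95% quantile. At least 2-fold higher in shYthdf2+EV were 417 genes (3.12%), and at least 2-fold lower were 315 (2.36%). At the smaller fold of 1.3, 2164 genes (16.2%) were higher and 1946 (14.6%) were lower. These 4 percentages are the background for every gene list below. Of the genes that passed 2-fold, 132 of the higher and 74 of the lower ones have placeholder symbols and were not described.

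The identity of the cells was examined first. Of 19 core ESC markers that passed the count minimum, none differed by 2-fold and the median was 0.12. *Pou5f1* had 25581 and 29882 reads. *Nanog* had 27227 and 30896. Among 18 markers of feeder fibroblasts, 12 lay under the count minimum, and the defining genes *Dcn*, *Lum*, *Fap* and *Prrx1* were at 0 in all 4 libraries. The 5 measured outside chromosome 12 had a median of 0.21: *Pdgfrb* (747 and 394 reads, log2 ratio -1.11 [-1.37 to -0.86]) and *Thy1* (448 and 296 reads) were lower in shYthdf2+EV, and *Fbn1* (403 and 532), *Col5a1* (827 and 1215) and *Col1a1* (51 and 82) lay above 0. The remaining marker, *Twist1* on chromosome 12, was higher (57 and 206 reads, 1.66 [1.08 to 2.35]). The 2C genes moved with the knockdown: 75 of 85 measured were higher, with a median of 1.5. Their part in the other differences was not tested. In bulk RNA, more cells of a state and more RNA per cell cannot be told apart.

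The 15 largest rises and the 15 largest falls among named genes are given next, as single genes and not as classes. *Ccnd2*, which encodes cyclin D2, had 45, 349, 95 and 327 reads in the scrambled, knockdown, wild-type and mutant libraries (log2 ratio 2.76 [2.15 to 3.51]). *Dcc*, the netrin receptor of growing axons, had 43, 292, 54 and 246 reads in the same order (2.56 [1.89 to 3.26]). *Ptgs2*, the inducible cyclooxygenase, had 36, 202, 71 and 205 reads (2.29 [1.57 to 3.11]). For these 3 genes the shScram+EV and shYthdf2+DF2WT libraries were low and the other 2 were high. The rest of the 15 largest rises were *Frg2f8* (8 and 105 reads, log2 ratio 3.45), *Irgm1*, an interferon-inducible GTPase (12 and 144), *Asxl3* (14 and 149), *Ccdc85a* (40 and 325), *Diras2* (19 and 140), *Ntm* (12 and 89), *Nedd9* (14 and 102), *Cubn* (18 and 120), *Pcdh19* (20 and 131), *Hoxd13* (54 and 341), *P2ry1* (17 and 99) and *Ccser1* (107 and 606, log2 ratio 2.31). All 15 had few reads in shScram+EV, from 8 to 107.

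On the lower side, *Gstm3*, a glutathione transferase, had 155, 29, 145 and 40 reads (log2 ratio -2.58 [-3.60 to -1.83]). *Slc1a1*, a glutamate transporter, had 807, 239, 571 and 324 reads (-1.94 [-2.24 to -1.64]). *Muc2*, a secreted mucin, had 209, 56, 229 and 99 reads (-2.08 [-2.74 to -1.47]). In each of them shYthdf2+EV was the lowest of the 4 libraries and shYthdf2+DF2Mut the next. The others among the 15 largest falls, *Ythdf2* aside, were *Ceacam16* (128 and 30 reads), *DXBay18* (94 and 23), *Plvap* (159 and 41), *Pde4c* (153 and 40), *Pgc* (84 and 22), *Mmp28* (112 and 30), *Prr5l* (172 and 47), *Toporsl* (116 and 33), *Eppk1*, a plakin of epithelial cells (130 and 38), *Rgs22* (388 and 118), *Scd3* (72 and 22) and *Ltbp3* (274 and 87).

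**Figure D1:**
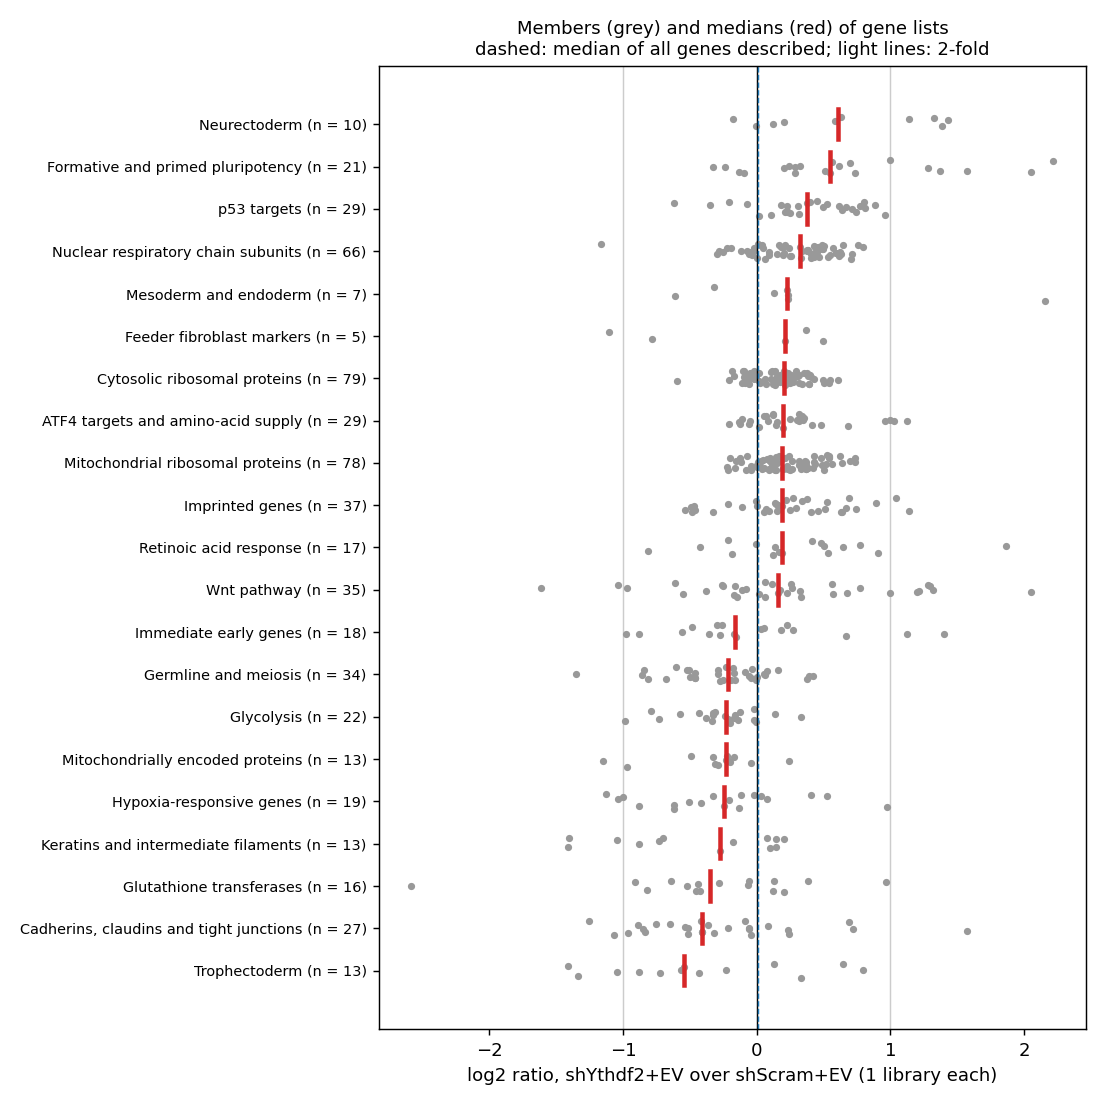
Log2 ratio of shYthdf2+EV over shScram+EV (horizontal axis) for the members (grey points) and median (red bar) of each gene list with at least 5 measured members and a median at least 0.15 from 0, the core ESC markers aside. Neurectoderm genes had the highest median (0.61) and trophectoderm genes the lowest (-0.54), and single members of most lists lay on both sides of 0.

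Developmental signalling pathways were described next. The Wnt pathway works through beta-catenin and TCF/LEF factors. Of 35 measured Wnt pathway genes, 6 were 2-fold or more higher and 2 were lower by as much, and the median was 0.16 against 0.01 over all genes. *Lef1*, the DNA-binding partner of beta-catenin, had 60, 284, 78 and 219 reads (2.05 [1.48 to 2.68]). *Axin2*, a feedback inhibitor that Wnt itself induces, had 347, 985, 531 and 918 reads (1.32 [1.06 to 1.57]). *Notum*, a secreted inhibitor that removes the lipid of Wnt ligands, had 514, 1340, 804 and 1352 reads (1.2 [0.99 to 1.41]). In all 3 the shScram+EV library was lowest and shYthdf2+DF2WT next. The Wnt ligands were mixed: *Wnt6* was higher (28 and 79 reads, 1.3 [0.42 to 2.32]), *Wnt7b* lower (146 and 54 reads, -1.61 [-2.32 to -0.97]) and *Wnt9a* lower (136 and 75 reads, -1.04 [-1.64 to -0.43]). *Wls*, which carries Wnt ligands to the cell surface, had 194 and 536 reads (1.28 [0.94 to 1.63]), and the receptor gene *Fzd1* had 54 and 143 (1.21 [0.57 to 1.92]).

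Nodal is a TGF-beta family ligand that acts in the epiblast, and the Lefty proteins and follistatin hold its pathway in check. Of 19 measured genes of the Nodal and activin pathway, 3 were at least 2-fold higher, none was 2-fold lower, and the median was 0.10. Those 3 were inhibitors: *Fst* (follistatin, 59 and 231 reads, 1.78 [1.18 to 2.40]), *Lefty1* (265 and 888 reads, 1.56 [1.28 to 1.86]) and *Lefty2* (842 and 2119 reads, 1.15 [0.98 to 1.31]). *Nodal* itself had 2394 and 4163 reads (0.61 [0.51 to 0.72]). *Smad3*, a signal transducer, was lower with 1059 and 783 reads (-0.62 [-0.81 to -0.43]). At 1.3-fold, 9 of the 19 genes were higher and 2 lower, 47.4% and 10.5% beside the backgrounds of 16.2% and 14.6%.

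The FGF-ERK list as a whole had a median of -0.10 over 30 genes, with 4 higher (13.3%) and 5 lower (16.7%) at 1.3-fold. Below 0 lay 21 of the 30 genes. Feedback inhibitors lay on both sides: *Spry4* (1166 and 2614 reads, 0.98 [0.84 to 1.12]) and *Spry2* (1079 and 2047 reads, 0.74 [0.59 to 0.89]), both inhibitors of receptor signalling, and *Dusp6*, the ERK phosphatase (1081 and 1800 reads, 0.55 [0.40 to 0.71]), were higher, while *Spry1* (509 and 463 reads, -0.32 [-0.58 to -0.05]) and *Dusp5* (469 and 393 reads, -0.44 [-0.72 to -0.16]) were lower. *Fgfr3*, a receptor, was lower (145 and 71 reads, -1.21 [-1.81 to -0.59]). In the BMP pathway (18 genes, median 0.07) the target gene *Id3* was higher (266 and 805 reads, 1.41 [1.12 to 1.70]) and the ligand genes *Bmp8b* (112 and 57 reads) and *Bmp6* (67 and 37 reads) were lower. In the Notch pathway (16 genes, median 0.10) the ligand gene *Dll1* (78 and 263 reads, 1.56 [1.05 to 2.13]) and the coactivator gene *Maml2* (47 and 153 reads, 1.51 [0.80 to 2.20]) were higher, and the target gene *Hes1* was lower (1155 and 931 reads, -0.50 [-0.68 to -0.32]). Of 16 genes of the LIF-STAT3 pathway (median -0.13), *Gbx2* (428 and 1273 reads, 1.39 [1.16 to 1.62]) and *Socs1*, a feedback inhibitor (42 and 118 reads, 1.29 [0.56 to 2.10]), passed 2-fold. Of 22 Hippo pathway genes (median -0.10), *Amot* passed 2-fold (112 and 273 reads, 1.10 [0.64 to 1.57]). The retinoic acid list (17 genes, median 0.19) was led by *Meis1* (18 and 76 reads, 1.87 [0.82 to 3.13]) and the receptor gene *Rxra* (685 and 1460 reads, 0.91 [0.72 to 1.10]).

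Immediate early genes, which respond within minutes to growth factors or stress, had a median of -0.16 over 18 members. *Myc* (286 and 861 reads, 1.40 [1.13 to 1.69]) and *Atf3* (72 and 179 reads, 1.12 [0.56 to 1.74]) were higher, and *Zfp36* (864 and 498 reads, -0.98 [-1.21 to -0.75]) and *Egr1* (3889 and 2407 reads, -0.88 [-0.98 to -0.77]) were lower. *Zfp36* encodes an RNA-binding protein that itself promotes deadenylation.

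Among lists with at least 5 measured genes, the neurectoderm, formative and trophectoderm lists had the medians furthest from 0. In formative pluripotency the epiblast loses its naive state and prepares for germ layer choice. Of 21 measured genes of the formative and primed list, 5 were at least 2-fold higher and none 2-fold lower, with a median of 0.55; at 1.3-fold 12 were higher (57.1%) and 0 lower. *Sox3*, a SOXB1 factor of the neural plate, had 54, 288, 179 and 270 reads in the scrambled, knockdown, wild-type and mutant libraries (2.22 [1.63 to 2.88]). *Cdh2*, N-cadherin, had 89, 302, 153 and 353 reads (1.57 [1.10 to 2.11]). *Zic2*, a zinc finger factor of the primed epiblast, had 541, 1590, 940 and 1198 reads (1.37 [1.17 to 1.58]). In these 3 genes shYthdf2+DF2WT lay above shScram+EV and below the remaining 2 libraries. Of 10 measured neurectoderm genes, 4 were at least 2-fold higher, with a median of 0.61: *En2*, a midbrain homeobox gene (124 and 381 reads, 1.43 [1.01 to 1.87]), *Gbx2*, also on the LIF-STAT3 list, *Neurod1*, a neuronal bHLH factor (166 and 475 reads, 1.33 [0.97 to 1.71]), and *Tubb3*, neuronal beta-tubulin (1339 and 3350 reads, 1.14 [1.01 to 1.27]). *En2* and *Neurod1* had 127 and 170 reads in shYthdf2+DF2WT, close to shScram+EV. A further 10 genes of the list, among them *Dcx* and *Hes5*, lay under the count minimum.

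The trophectoderm is the outer epithelium of the blastocyst. Of 13 measured trophectoderm genes, 3 were at least 2-fold lower and none 2-fold higher, with a median of -0.54; at 1.3-fold 8 were lower (61.5%) and 2 higher (15.4%). *Krt19* had 788, 337, 1097 and 264 reads (-1.41 [-1.69 to -1.15]). *Esx1*, an X-linked homeobox gene of the placenta, had 1223, 550, 976 and 460 reads (-1.34 [-1.55 to -1.13]). *Krt8* had 1217, 670, 1193 and 553 reads (-1.05 [-1.24 to -0.85]), and its partner *Krt18* had 505, 311, 419 and 232 (-0.88 [-1.18 to -0.58]). Both libraries with high counts, shScram+EV and shYthdf2+DF2WT, stood apart from the other 2 in each of these 4 genes. The defining factors *Cdx2*, *Elf5* and *Gata3* lay under the count minimum, with 8 and 11, 14 and 4, and 27 and 30 reads in shScram+EV and shYthdf2+EV.

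The same side held for other epithelial genes. Of 27 measured cadherin, claudin and tight junction genes, 14 were lower (51.9%) and 3 higher (11.1%) at 1.3-fold, with a median of -0.41. *Cldn7* had 93 and 44 reads (-1.26 [-2.05 to -0.49]), *Cldn6* 475 and 299 (-0.85 [-1.16 to -0.55]), *Tjp3*, a tight junction scaffold, 347 and 188 (-1.07 [-1.45 to -0.70]) and *Esrp1*, the epithelial splicing regulator, 199 and 116 (-0.96 [-1.46 to -0.49]). *Cdh1*, E-cadherin, had 26182, 17667, 23986 and 15971 reads (-0.75 [-0.79 to -0.71]). N-cadherin was thus higher and E-cadherin lower in the same library. The keratin and intermediate filament list had a median of -0.27 over 13 genes. Beyond the keratins already named, *Krt17* had 199 and 85 reads (-1.41 [-1.99 to -0.90]), while the mesenchymal filament gene *Vim* had 10067 and 12645 (0.14 [0.09 to 0.20]). In the matrix and integrin list (55 genes, median 0.11), *Col5a2* was higher (47 and 219 reads, 2.02 [1.36 to 2.71]) and *Timp2*, an inhibitor of metalloproteases, lower (273 and 109 reads, -1.51 [-2.0 to -1.05]). The actin cytoskeleton list had a median of -0.08 over 25 genes, with 4 lower (16%) and 1 higher at 1.3-fold.

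**Figure D2:**
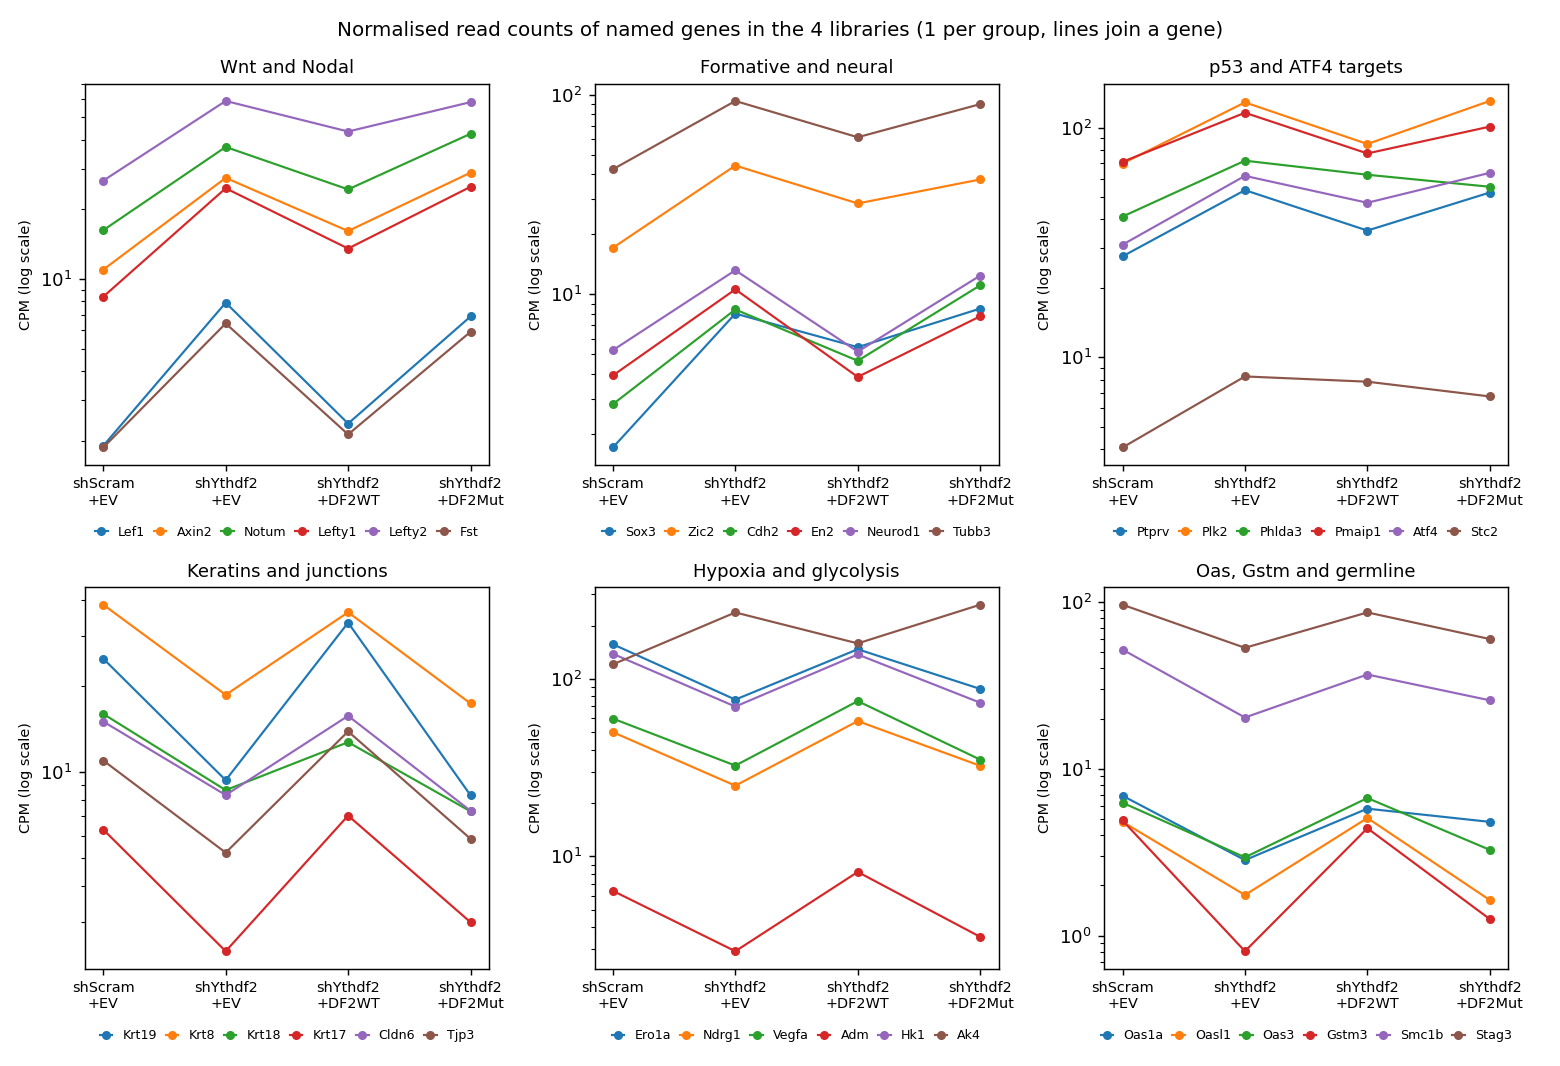
Normalised read counts (CPM, log axis) of 36 named genes in the 4 libraries, 1 library per group, with a line joining the values of each gene. The shYthdf2+EV and shYthdf2+DF2Mut points lie above shScram+EV in the Wnt, Nodal, formative and neural panels and below it in the keratin and junction panel, and the shYthdf2+DF2WT points of most of these genes lie nearer to shScram+EV. Chromosome 12 medians and male-specific chromosome Y reads split the libraries alike (below). Differences between lines and an effect of the transgene therefore cannot be told apart.

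Of other lineages, the primitive endoderm list had a median of 0.14 over 14 genes, with *Cubn* (above) and the endocytic adaptor *Dab2* (99 and 237 reads, 1.07 [0.56 to 1.56]) past 2-fold and *Gata6* at 85 and 163 reads (0.75 [0.23 to 1.35]). Of 22 mesoderm and endoderm genes 14 lay under the count minimum, with *Cer1* and *T* at 0 in all 4 libraries and *Sox17* at 20 and 42 reads. Among the 7 that were measured, *Kdr*, the VEGF receptor, had 30 and 154 reads (2.16 [1.36 to 3.08]). Germline and meiosis genes lay lower, with a median of -0.21 over 34 genes and 12 lower (35.3%) against 2 higher (5.88%) at 1.3-fold. *Smc1b*, the meiotic cohesin subunit, had 1638, 730, 1210 and 819 reads in the scrambled, knockdown, wild-type and mutant libraries (-1.35 [-1.53 to -1.17]). *Stag3*, of the same cohesin, had 3044, 1910, 2851 and 1908 reads (-0.86 [-0.98 to -0.74]), and *Mov10l1*, a piRNA helicase gene, and *Stra8*, the meiotic gatekeeper, had log2 ratios of -0.85 and -0.82. Imprinted genes outside chromosome 12 had a median of 0.19 over 37 members, with 12 higher (32.4%) and 5 lower (13.5%) at 1.3-fold. *Nap1l5* (34 and 86 reads) and *Igf2* (51 and 120 reads) passed 2-fold, *H19* had 890 and 1881 reads (0.89 [0.73 to 1.06]) and *Mest* 2714 and 5173 (0.74 [0.65 to 0.84]).

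Energy metabolism split between its branches. Of 22 glycolysis genes, 20 had a log2 ratio below 0 and the median was -0.23; at 1.3-fold 6 were lower (27.3%) and 0 higher. *Hk1*, hexokinase, had 4378, 2512, 4521 and 2337 reads (-0.99 [-1.09 to -0.89]). *Aldoc* had 1112 and 731 reads (-0.79 [-0.98 to -0.60]), *Gapdh* 18203 and 12469 (-0.73 [-0.78 to -0.69]) and *Pfkp*, a phosphofructokinase, 14901 and 11382 (-0.57 [-0.62 to -0.52]). Hypoxia-responsive genes, whose transcription depends on HIF factors, had a median of -0.24 over 19 members, 8 lower (42.1%) and 3 higher (15.8%) at 1.3-fold. *Ero1a*, an oxidase of the endoplasmic reticulum, had 4956, 2749, 4839 and 2795 reads in the order of libraries above (-1.04 [-1.13 to -0.94]). *Adm*, adrenomedullin, had 202, 105, 269 and 112 (-1.13 [-1.66 to -0.65]), *Ndrg1* 1584, 900, 1905 and 1031 (-1.0 [-1.17 to -0.83]) and *Vegfa* 1889, 1168, 2469 and 1117 (-0.88 [-1.03 to -0.73]). In the 4 genes just named, shYthdf2+EV and shYthdf2+DF2Mut were lower than both other libraries. *Ak4*, an adenylate kinase on the same list, went the other way, with 3819, 8521, 5221 and 8335 reads (0.97 [0.89 to 1.05]).

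To show the hypoxia genes at sequence level, the 250 bases before the transcription start of each gene, from RefSeq on GRCm38.p6, were searched on both strands for ACGTGC, the core of the HIF-binding element with its next base. Of 19 measured members 17 had a window, and 11 of them (64.7%) held the 6 letters in at least 1 of their windows, beside 5.63% of all 27025 genes with a window, counted in the same way, and 4.92% of all 32851 windows. This share is set by how HIF targets are listed and is no result of the knockdown. Of the hypoxia-responsive genes named above as lower, *Ero1a* held the motif and *Adm* and *Vegfa* did not, while *Ndrg1* was not among the 17. The 30 bases around the motif, in capitals, are shown for 3 genes that were lower and for *Ak4*, which was higher. They are given 5′ to 3′ on the strand of the gene.
*Ero1a*, chr14:45318619-45318648, minus strand: gcgcgcgccgctGCACGTccgcaggggagg
*Egln1*, chr8:124949305-124949334, minus strand: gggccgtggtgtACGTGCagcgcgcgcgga
*Mxi1*, chr19:53329335-53329364, plus strand: cctcggcacccgACGTGCactggcgggggg
*Ak4*, chr4:101419478-101419507, plus strand: cccactctgcccACGTGCggggaccggcag
The motif lay 64, 68, 66 and 213 bases upstream of the start in this order, and in *Ero1a* it is on the opposite strand. *Egln1*, the prolyl hydroxylase that senses oxygen, had 1925 and 1429 reads (-0.62 [-0.76 to -0.47]) and *Mxi1*, a MYC antagonist, 1377 and 1019 (-0.62 [-0.79 to -0.45]). The motif was thus present in genes that lay on either side of 0.

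Nuclear-encoded subunits of the respiratory chain had the opposite sign to glycolysis, with a median of 0.33 over 66 genes and 30 higher (45.5%) against 1 lower (1.52%) at 1.3-fold. Against shScram+EV the median of this list was 0.36 in shYthdf2+DF2WT and -0.10 in shYthdf2+DF2Mut, so shYthdf2+EV and shYthdf2+DF2Mut had opposite signs. *Cox7a2* had 528 and 1041 reads (0.79 [0.58 to 1.01]), *Ndufa1* 171 and 330 (0.76 [0.37 to 1.15]) and *Ndufa13* 633 and 1180 (0.71 [0.52 to 0.92]). The lower one was *Cox4i2*, a subunit isoform that responds to oxygen (107 and 54 reads, -1.16 [-1.91 to -0.49]). The 13 protein genes of the mitochondrial genome had a median of -0.23, and 12 of them lay below 0, led by *ATP6* (11361 and 5834 reads, -1.15 [-1.21 to -1.08]) and *CYTB* (651787 and 378023 reads, -0.97 [-0.98 to -0.96]). Both also had fewer reads in shYthdf2+DF2WT (6304 and 432504) than in shScram+EV.

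Of the 66 nuclear subunits, 36 are short genes with under 1000 bases of exons, and short genes as a whole were higher in shYthdf2+EV. Among all described nuclear genes with a summed exon length under 1000 bases (867 genes) the median was 0.19, and 31.03% were at least 1.3-fold higher, beside a median of -0.0025 over the 12461 longer ones. Of the respiratory chain subunits, the 36 under 1000 bases had a median of 0.44 and the 30 longer ones 0.04. Cytosolic ribosomal protein genes (79, median 0.20) had 0.23 in the 49 short and 0.11 in the 30 longer members. At 1.3-fold 12 of the 79 were higher (15.2%) and 1 lower (1.27%), beside 16.2% and 14.6% over all genes, so the share of higher genes was near the background. Mitochondrial ribosomal protein genes (78, median 0.19, 19 or 24.4% higher and 0 lower at 1.3-fold) had 0.21 in 21 short and 0.19 in 57 longer members. The part of gene length in these list medians was not tested. Among single members, *Rps19* had 7069 and 11705 reads (0.54 [0.48 to 0.60]), *Mrpl3*, a longer gene, 1229 and 2263 (0.69 [0.55 to 0.84]), and *Rpl3* was lower with 33994 and 25594 (-0.60 [-0.63 to -0.56]). In shYthdf2+DF2Mut the cytosolic ribosomal median against shScram+EV was -0.27 and in shYthdf2+DF2WT it was 0.36, so 2 libraries carrying the knockdown hairpin, shYthdf2+EV and shYthdf2+DF2Mut, had opposite signs for this list.

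**Figure D3:**
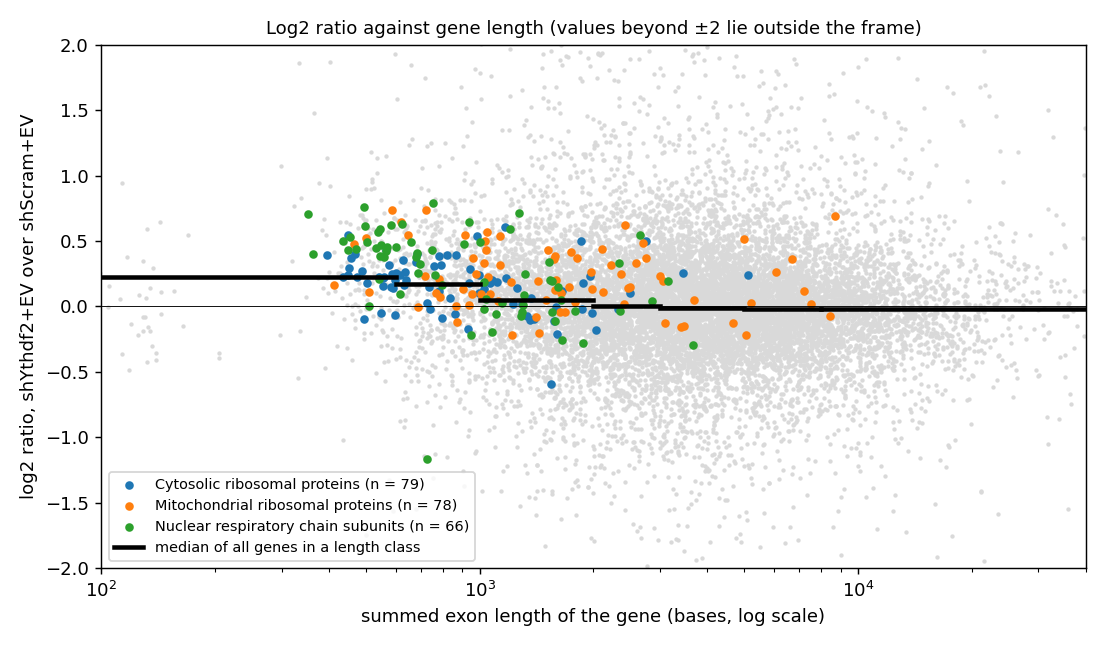
Log2 ratio of shYthdf2+EV over shScram+EV (vertical axis) against summed exon length in bases (log axis) for the described nuclear genes (grey), with 3 lists in colour and the median of each length class as a black bar. The class medians fell from 0.22 under 600 bases to -0.02 over 8000 bases, and 67 genes beyond 2 on either side lie outside the frame.

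Stress and amino-acid supply genes were measured beside them. p53 target genes had a median of 0.38 over 29 members, none past 2-fold; at 1.3-fold 14 were higher (48.3%) and 1 lower (3.45%). *Ptprv* had 871, 1925, 1175 and 1663 reads (0.96 [0.79 to 1.12]). *Plk2*, a polo-like kinase, had 2210, 4643, 2800 and 4167 (0.88 [0.78 to 0.99]). *Phlda3* (1298 and 2587 reads, 0.81 [0.67 to 0.95]), *Perp* (1257 and 2438, 0.77 [0.63 to 0.91]) and the BH3-only death genes *Bbc3* (475 and 903, 0.74 [0.51 to 0.97]) and *Pmaip1* (2248 and 4184, 0.71 [0.60 to 0.82]) were all higher. The cell cycle inhibitor *Cdkn1a* had 2484 and 3050 reads (0.11 [0.00 to 0.22]), *Mdm2* 10076 and 13416 (0.23 [0.17 to 0.28]), and *Trp53* itself 11854 and 15605 (0.21 [0.16 to 0.26]). *Rrm2b* was the member furthest below 0 (627 and 464 reads, -0.62 [-0.87 to -0.37]).

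ATF4, the transcription factor of the integrated stress response, had 979, 2221, 1553 and 2026 reads in the scrambled, knockdown, wild-type and mutant libraries (*Atf4*, 1.00 [0.84 to 1.15]). Over 29 genes of its target and amino-acid supply list the median was 0.20, with 7 higher (24.1%) and 0 lower at 1.3-fold. *Atf3* (above), *Stc2* (128 and 297 reads, 1.03 [0.59 to 1.47]) and *Atf5* (308 and 681, 0.96 [0.68 to 1.24]) were higher. The classical targets *Asns*, asparagine synthetase (9058 and 9924 reads, -0.05 [-0.11 to 0.00]), and *Ddit3*, CHOP (285 and 341, 0.07 [-0.26 to 0.41]), had intervals that reached 0. Of 24 heat shock and chaperonin genes (median 0.02), *Hspa1a* (104 and 459 reads, 1.95 [1.52 to 2.42]) and *Cct3*, a subunit of the TRiC chaperonin (7624 and 19447 reads, 1.16 [1.11 to 1.22]), passed 2-fold. *Hspa1a* and *Hspa1b* are near-identical copies, and which of them a read came from is uncertain.

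Glutathione transferases had a median of -0.35 over 16 members, 8 lower (50%) and 2 higher (12.5%) at 1.3-fold. Besides *Gstm3*, *Gstp2* (289 and 175 reads, -0.91 [-1.30 to -0.50]), *Gstm1* (750 and 484, -0.82 [-1.06 to -0.58]) and *Gstm2* (343 and 250, -0.64 [-0.99 to -0.31]) were lower. NRF2 targets as a list had a median of 0.04 over 23 genes. Sterol synthesis (26 genes, median 0.05), fatty acid synthesis (13 genes, median -0.01) and the endoplasmic reticulum stress response (18 genes, median 0.06) lay near the median of all genes. In fatty acid synthesis *Acss2*, the cytosolic acetyl-CoA synthetase, was lower (1049 and 564 reads, -1.08 [-1.29 to -0.87]). Nucleotide synthesis genes had a median of -0.12 over 22 members. Autophagy and lysosome genes had a median of -0.14 over 32 members, with 8 lower (25%) and 1 higher (3.12%) at 1.3-fold.

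The lists around m6A and RNA decay had medians from -0.03 to 0.13, while single members differed more. Of 15 other m6A readers (median 0.02) and 13 methyltransferase and demethylase genes (median -0.01) none passed 2-fold. At 1.3-fold 3 of the readers were higher (20%) and 1 lower (6.67%), beside 16.2% and 14.6% over all genes. The paralogs *Ythdf1* (3855 and 5992 reads, 0.45 [0.37 to 0.53]) and *Ythdf3* (3985 and 6190, 0.45 [0.37 to 0.53]) and the nuclear reader *Ythdc1* (4514 and 7382, 0.52 [0.45 to 0.60]) were higher, and *Igf2bp2*, a reader that stabilises RNA, was lower (5113 and 4134, -0.49 [-0.58 to -0.41]). In the CCR4-NOT and deadenylation list (21 genes, median -0.03) the scaffold gene *Cnot1* had 29444 and 28330 reads (-0.24 [-0.28 to -0.21]), the deadenylase gene *Parn* 1820 and 1473 (-0.49 [-0.63 to -0.35]) and *Btg2*, an activator of deadenylation and also a p53 target, 2032 and 3678 (0.67 [0.56 to 0.78]). Decapping and 5′ decay genes had a median of 0.02 over 22 members, with *Dcp1b* furthest from 0 (221 and 129 reads, -0.96 [-1.44 to -0.51]). The exosome list (17 genes) had a median of -0.02, and the list of nonsense-mediated decay and RNase P genes (22 genes) had 0.13, led by *Pop7*, a subunit of RNase P (237 and 474 reads, 0.81 [0.50 to 1.15]).

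SR splicing factors, many of which limit their own level through poison exons, had a median of 0.14 over 16 genes, with 3 higher (18.8%, near the background of 16.2%) and 0 lower at 1.3-fold. *Srsf3* had 13143, 23872, 16184 and 18857 reads (0.68 [0.63 to 0.72]), and *Tra2b* 9617, 14618, 10897 and 11610 (0.42 [0.37 to 0.47]). The counts of a gene do not separate its productive from its poison-exon isoforms. The miRNA pathway (16 genes, median 0.03), noncoding hosts of snoRNAs (18, median 0.05), hnRNP genes (20, median -0.01), translation factors (40, median -0.09), ribosome biogenesis (36, median 0.08), tRNA synthetases (19, median -0.06) and the proteasome (38, median 0.09) lay near 0.

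Among chromatin complexes, Polycomb PRC2, which places the repressive H3K27 methyl mark, had a median of 0.04 over 15 genes while 3 accessory members passed 2-fold. *Ezhip*, an inhibitor of the complex, had 223, 888, 405 and 607 reads (1.81 [1.5 to 2.11]). *Epop*, an accessory subunit of ESCs, had 3092, 7723, 5226 and 5544 (1.13 [1.05 to 1.22]), and *Phf19*, a subunit that binds chromatin, had 1185, 613, 975 and 509 (-1.14 [-1.34 to -0.94]). The catalytic subunit gene *Ezh2* had 7959 and 8383 reads (-0.11 [-0.17 to -0.05]) and its paralog *Ezh1* 1287 and 875 (-0.74 [-0.92 to -0.56]). PRC1 and PRC1.6 genes had a median of 0.12 over 28 members, 6 higher (21.4%) and 1 lower (3.57%) at 1.3-fold, with *Cbx8* past 2-fold (41 and 113 reads, 1.27 [0.54 to 2.11]). The silencers of retroelements (32 genes, median 0.03), DNA methylation and TET genes (18, median -0.01) and the SWI/SNF and NuRD complexes (33, median -0.08) had no member past 2-fold.

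Cell cycle genes lay close to 0, with medians of -0.06 for DNA replication (42 genes), -0.11 for mitosis (32), -0.14 for homologous recombination and Fanconi repair (31) and 0.06 for cyclins and CDK inhibitors (28). Beside *Ccnd2*, no member of these 4 lists passed 2-fold. Of the replication-dependent histone genes, whose mRNAs have no poly(A) tail, 62 of 65 lay under the count minimum. The 3 measured ones all lay above 0, with a median of 1.05, and 2 were at least 2-fold higher (3.12% over all genes). All 65 together had 32.2 CPM in shScram+EV and 54.3 in shYthdf2+EV.

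The RNA-sensing and interferon list had a median of -0.04 over 30 genes, with 3 at least 2-fold lower, all of the OAS family of enzymes that activate RNase L, or related to it. *Oas1a* had 218, 102, 190 and 153 reads in the scrambled, knockdown, wild-type and mutant libraries (-1.28 [-1.79 to -0.79]). *Oas3* had 198, 106, 220 and 104 (-1.08 [-1.60 to -0.59]), and *Oasl1*, a relative without the enzyme activity, 152, 63, 167 and 52 (-1.45 [-2.08 to -0.82]). *Oas1g* (122 and 74 reads, -0.90 [-1.54 to -0.29]) and *Oas1c* (104 and 76, -0.63 [-1.28 to -0.01]) were lower, and *Oas2* had 228 and 215 (-0.27 [-0.66 to 0.13]). Over the whole list 18 genes lay below 0 and 12 above. At 1.3-fold 7 were lower (23.3%) and 4 higher (13.3%), beside the backgrounds of 14.6% and 16.2%. Among the 4 higher, *Tap1*, the peptide transporter, had 233 and 451 reads (0.77 [0.45 to 1.11]) and *Ifit2* 103 and 179 (0.61 [0.10 to 1.13]). The *Oas1* genes are close copies, so the split of reads among them is uncertain.

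Promoters of *Oas* genes are shown because the 5 measured genes of the family all lay below 0, 2 of them at least 2-fold. The interval of *Oas2* held 0 (above). The same 250-base windows were searched on both strands for GAAA, any 2 bases and GAAA again, the core of the interferon-stimulated response element, which was in 2.98% of all windows. Counted by gene, with at least 1 window holding it, it was found for 3.46% of all genes and for 8 of the 27 list members that had a window (29.6%). This share is set by how interferon genes are listed and is no result of the knockdown. The 8 were *Oas1a*, *Oas1c*, *Oas1g*, *Oas3*, *Ifitm2*, *Bst2*, *B2m* and *Stat2*. Capitals mark the motif in 30 bases on the strand of the gene, on GRCm38.p6.
*Oas1a*, chr5:120907526-120907555, minus strand: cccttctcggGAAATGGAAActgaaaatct
*Oas1g*, chr5:120887614-120887643, minus strand: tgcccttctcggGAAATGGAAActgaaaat
*Oas1c*, chr5:120812609-120812638, minus strand: gaaatgggacTTTCAGTTTCcatttcccgg
*Oas3*, chr5:120777715-120777744, minus strand: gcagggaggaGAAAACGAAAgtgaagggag
The motif of *Oas1c* is on the opposite strand. *Oas1a* and *Oas1g* carry the same motif letters in nearly the same surroundings, 20 and 18 bases before their starts. A match names letters only.

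Grouping named genes by the letters before the first digit gave 401 families with at least 5 measured members. The 5 lowest medians were those of *Xlr* (9 genes, -1.32), *Oas* (5, -0.90), *Krt* (7, -0.88), *Cldn* (7, -0.83) and *Srrm* (5, -0.59). All 9 *Xlr* genes, X-linked multicopy genes related to the synaptonemal complex gene *Sycp3*, lay below 0 and 6 passed 2-fold. *Xlr3a* had 1085, 494, 794 and 391 reads (-1.32 [-1.54 to -1.10]), and *Xlr4a* had 307, 121, 230 and 92 (-1.53 [-2.0 to -1.11]). *Xlr4b* had 145 and 150 reads (-0.14 [-0.61 to 0.36]). Reads that aligned to several places were left out by the counting, so the members' values rest on the bases in which the copies differ. The 5 highest medians were those of *Epha* (5 genes, 0.70), *Pcsk* (5, 0.61), *Fgf* (6, 0.59), *Tspyl* (5, 0.54) and *Kbtbd* (7, 0.53), and all 7 *Kbtbd* genes lay above 0. Of the *Epha* genes, which encode ephrin receptors, *Epha7* had 105 and 280 reads (1.23 [0.77 to 1.73]) and *Epha4* 2932 and 3022 (-0.14 [-0.25 to -0.04]).

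Zinc finger genes of the *Zfp* series below 900 had a median of 0.14 over 268 genes, with 59 higher (22%) and 16 lower (5.97%) at 1.3-fold, and the *Zfp900* series, mostly KRAB genes, had 0.11 over 51 genes, with 12 higher (23.5%) and 0 lower. *Zfp651* (33 and 154 reads, 2.02 [1.29 to 2.96]) and *Zfp618* (48 and 204, 1.89 [1.25 to 2.61]) were furthest above 0. In shYthdf2+DF2Mut the *Zfp900* series had a median of 0.28 against shScram+EV, and in shYthdf2+DF2WT it had -0.23. The comparisons share the shScram+EV library.

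The genes of chromosome 12 were set apart because they differed as a chromosome. Its 536 measured genes, leaving out 2C and pluripotency genes, had a median log2 ratio of -0.29, and 77.6% lay below 0. Over 12800 genes of the other autosomes the median was 0.01 and 49.2% lay below 0, and the medians of single other autosomes ranged from -0.04 to 0.04. In windows of 20 Mb along the chromosome, by the mm39 coordinates of the table, the medians ranged from -0.33 to -0.22. A lower level across the whole chromosome and lower levels of its single genes cannot be told apart here, so a gene on it is read against its own chromosome's median.

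Of the members of the gene lists, 60 lie on chromosome 12, with 44 below 0 and a median of -0.26. The 5 named genes furthest below were *Tnfaip2* (98 and 12 reads), *Adssl1*, a muscle enzyme of AMP synthesis (152 and 50), *Tmem63c* (449 and 153), *Fos*, an immediate early gene (3623 and 1323, -1.64 [-1.77 to -1.51]), and *Pygl*, glycogen phosphorylase (479 and 187). In shYthdf2+DF2WT and shYthdf2+DF2Mut these had 98 and 24, 105 and 44, 381 and 161, 2551 and 829, and 515 and 175 reads, so shYthdf2+DF2Mut was low and shYthdf2+DF2WT nearer to shScram+EV in all 5. The median of the whole chromosome had the same order of libraries (above), so this order is not particular to the 5 genes. The 5 furthest above were *Stxbp6* (33 and 165 reads, 2.12 [1.39 to 3.04]), *Sp8* (23 and 93), *Nrcam*, a neural adhesion gene (66 and 240), *Twist1*, a mesenchymal bHLH factor (57 and 206, 1.66 [1.08 to 2.35]), and *Hdac9* (47 and 167). *Rian* and *Meg3*, maternally expressed noncoding RNAs of the imprinted *Dlk1* locus, had 16527 and 11621 reads (-0.69 [-0.74 to -0.65]) and 11012 and 9510 (-0.40 [-0.45 to -0.34]).

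**Figure D4:**
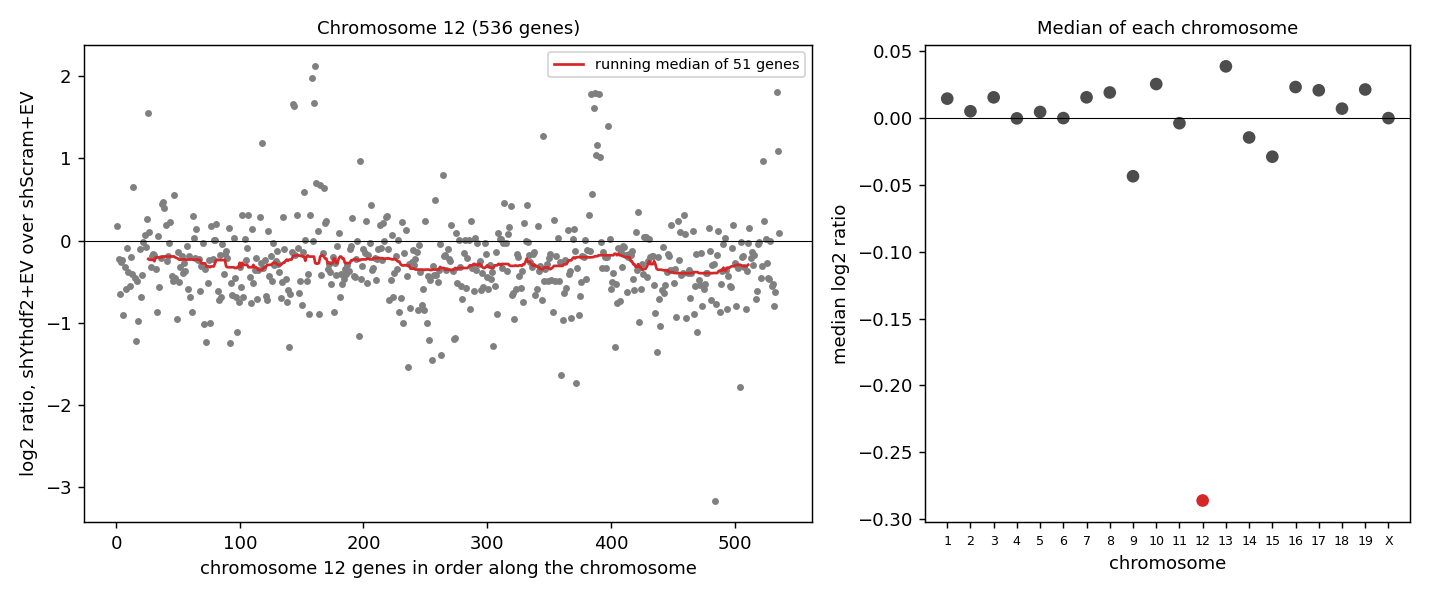
Left, log2 ratio of shYthdf2+EV over shScram+EV for the 536 measured chromosome 12 genes in order along the chromosome, with the running median of 51 genes in red. Right, the median log2 ratio of each autosome and of X, with chromosome 12 in red at -0.29 and the others between -0.04 and 0.04; the mitochondrial genome (16 genes, median -0.22) is not plotted.

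On chromosome Y, 21 genes had at least 1 read. Among the 7 of them that are coding genes of the male-specific part, shScram+EV had 4 reads in all and shYthdf2+EV 672, a log2 ratio of 7.05 [5.34 to 10.26]. *Ddx3y*, an RNA helicase, had 2 and 261 reads, *Eif2s3y*, a translation initiation factor, 0 and 225, *Uty* 0 and 106, *Uba1y* 2 and 44, *Zfy1* 0 and 16, *Kdm5d* 0 and 12, and *Usp9y* 0 and 8. For *Eif2s3y* and *Uty*, at 0 in shScram+EV, the lower limits of the counting intervals were log2 ratios of 4.71 and 3.61. The other 14 genes, most of them pseudogenes or predicted genes, had 1701 and 1498 reads in all (-0.37 [-0.51 to -0.23]), and all 21 together 1705 and 2170 (0.16 [0.03 to 0.29]). *Mid1-ps1* (623 and 539 reads) and *Gm33272* (959 and 814) carried most of the other reads, in both libraries, with *Gm52481* (73 and 56), *Vmn2r-ps139* (11 and 30), *Gm20775* (18 and 27), *Gapdh-ps15* (6 and 22) and *LOC108168645* (11 and 0). *Gm2098*, *Gm3376*, *Gm4017*, *Gm18665*, *Gm20911*, *Gm21170* and *Gm21184* had at most 2 reads in a library. The difference in chromosome Y reads separates the compared lines as the hairpin does, so which of the differences above go with the line rather than with *Ythdf2* cannot be told apart. Over the 4 libraries the 7 male-specific genes had 4, 672, 105 and 602 reads. Here too shYthdf2+DF2WT lay nearer to shScram+EV than shYthdf2+EV or shYthdf2+DF2Mut did, as in the chromosome 12 medians. Where genes above show this order, differences between lines and an effect of the transgene cannot be told apart.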

How the data were processed

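The libraries were 4 polyadenylated RNA-seq libraries of E14 ESCs, 1 per group, grouped by their titles. The deposited values are raw read counts per gene. Per the file headers, the authors counted reads, not pairs, with featureCounts 2.0.3 at exons of the mm39 RefSeq annotation, without strand and without reads that aligned to several places. The submitters' processing notes also list fastp 0.19.4, HISAT2 2.2.1 and mm10. The kit marks strand, but with unstranded counting overlapping antisense genes, such as *Xist* and *Tsix*, cannot be told apart.

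Library sizes were scaled with TMM (edgeR 4.0.16 in R 4.3.3, genes averaging 10 reads or more). Log2 ratios used a prior count of 0.5, and genes averaging 50 reads or more over the libraries were described. Intervals are 95% Clopper-Pearson on reads divided by 2. The amplified reads carried no molecular identifiers, so these intervals and the floor of 3 reads cover counting error only. With 1 library per group nothing was tested. The interval code was tested on simulated data. The members and gene lists were chosen with earlier results of these data known, and the fold of 1.3 was chosen after seeing the data. Named genes were *Ythdf2*, up to 4 members per list with the largest absolute log2 ratio among those whose interval left out 0, members named for a stated role, the 15 largest rises and falls, 5 at each end on chromosome 12, all chromosome Y genes with a read, and the 5 lowest and highest families of at least 5 genes. Promoter windows came from RefSeq on GRCm38.p6, matched by symbol. Alternatives were other scalings (total counts, upper quartile, DESeq2 1.42.0 size factors, TMM without mitochondrial genes), a prior count of 5, other count minimums and folds, chromosomes 12 and Y kept in, and summed list counts.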

Additional observations from a re-analysis of the deposited data

Results flagged for a closer look

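Reads of coding genes of the male-specific part of chromosome Y also appeared in the libraries outside the main comparison. They numbered 105 in shYthdf2+DF2WT and 602 in shYthdf2+DF2Mut, above the 4 reads of the shScram+EV library and below the 672 of shYthdf2+EV. The shYthdf2+DF2WT library thus lay nearer to shScram+EV, the order that many genes in the Results also had. What sets these counts was not tested.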

How the results depend on the processing

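No paired analysis was possible because each group holds 1 library. The number of genes at least 2-fold higher (417) and lower (315) depended on the count minimum and the fold: at a mean count of at least 10 they were 1205 and 1000, at 200 they were 143 and 79, with no filter beyond 1 read 4996 and 4344, and at 1.5-fold 1135 and 997. The other settings kept both counts within 1.5 times. The *Ythdf2* ratio stayed within its counting interval, and the chromosome 12 and chromosome Y values moved by less than their stated spread, under each setting run for them. For the 7 male-specific genes these were 4 other scalings, added after seeing the data (7.03 to 7.09). Of 65 list medians, that of ribosome biogenesis changed sign against its counting interval, to -0.0335 when its counts were summed, where abundant genes weigh most. The cause was not tested. Over all lists, 26 of 650 alternative values had the other sign. Where a list's median lay at least 0.2 from 0 (16 lists), 3 alternative values had the other sign, for the feeder fibroblast and the keratin lists. Scaling by total counts moved the median of all genes to 0.05. No gene with a 2-fold difference had a counting interval that held 0, but the whole interval lay past 2-fold for only 146 of the 417 higher and 59 of the 315 lower genes, so depth limits which genes pass. The spread between cultures was not measured.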
